A study of Rattus norvegicus with 12 samples.

Results

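The 10 genes described here encode enzymes that make fatty acids and build them into triglyceride: Fasn, Acaca and Acly (de novo synthesis), Fads1 and Fads2 (desaturation), and Gpam, Agpat2, Lpin1, Dgat1 and Dgat2 (glycerolipid assembly). Members were found by gene symbol in the platform annotation of an Illumina RatRef-12 Expression BeadChip, a 1-colour array whose beads carry gene probes. Of the 22505 probes in the table, which name 13327 genes, 9 belonged to a member, 1 for each gene except Fasn, which is not analysed here. RNA came from individual livers of male Wistar rat pups culled 1 day after birth. Their dams were mated to a single stud male and fed semi-synthetic, casein-based diets until delivery: a control diet (C), a low protein diet (MLP), or the low protein diet with added folic acid (MLP-F), with n = 4 livers per group. There was no control diet with added folic acid. Per the study's methods 1 litter was taken per diet, so the pups of a group are littermates, diet and litter cannot be told apart, and every p-value measures the spread among pups.

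Acly makes acetyl-CoA in the cytosol from citrate, Acaca carboxylates it to malonyl-CoA, and fatty acid synthase, the product of Fasn, joins these units into palmitate. Fads2 and Fads1 are the delta-6 and delta-5 desaturases, which act in turn on dietary linoleic and alpha-linolenic acid on the way to arachidonic and eicosapentaenoic acid. Triglyceride is assembled on a glycerol backbone: Gpam adds the first acyl chain, Agpat2 the second, Lpin1 removes the phosphate to give diacylglycerol, and Dgat1 and Dgat2 add the last chain. The liver stores the product in lipid droplets or secretes it in lipoproteins, and newborn rat liver takes up much fat from milk.

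Promoter stretches of 3 members are shown because Fads1 and Fads2 are the members that were called lower in MLP livers in at least 1 comparison and Lpin1 had the largest difference of the 9. RefSeq promoter entries of assembly GRCr8 (250 bases before an annotated start) matched 6 of the 10 members, namely Acly, Fads1, Fads2, Gpam, Agpat2 and Lpin1. Capitals mark a CCAAT box or a GC box, on either strand.
Fads1: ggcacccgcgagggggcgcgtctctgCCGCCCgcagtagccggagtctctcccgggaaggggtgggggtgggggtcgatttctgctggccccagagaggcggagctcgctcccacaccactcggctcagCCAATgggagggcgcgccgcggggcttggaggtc
Fads2: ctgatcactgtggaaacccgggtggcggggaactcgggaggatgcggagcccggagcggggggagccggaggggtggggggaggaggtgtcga
Lpin1: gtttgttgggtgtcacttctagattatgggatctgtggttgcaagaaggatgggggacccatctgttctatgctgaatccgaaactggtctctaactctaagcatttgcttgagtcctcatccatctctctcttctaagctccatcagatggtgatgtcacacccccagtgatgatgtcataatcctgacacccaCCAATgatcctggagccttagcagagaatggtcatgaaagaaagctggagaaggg
In GRCr8 the gene spans are chr1:216252605-216267618 for Fads1, chr1:216132277-216172190 for Fads2, chr6:45039110-45145845 for Lpin1, chr3:29814924-29826569 for Agpat2 and chr7:110104514-110119091 for Dgat1. The Fads1 stretch is chr1:216252442-216252604 on the plus strand and the Fads2 stretch is chr1:216172191-216172283 on the minus strand. For these genes 87 and 157 of the 250 bases lie inside the span of a longer gene model and were left out. The annotated starts of Fads1 and Fads2 are 80.7 kb apart on opposite strands. The Lpin1 stretch is chr6:45108943-45109192 on the minus strand, and its end away from the annotated start lies 36.7 kb inside the gene's span.

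The letters CCAAT, searched on both strands, were found in 4 of the 6 whole windows (Acly, Fads1, Gpam and Lpin1) and in 34.02% of 33469 RefSeq promoter windows of the same length. The GC box letters GGGCGG were found in 4 of 6 (Acly, Fads1, Fads2 and Agpat2) against 30.47% of all windows, with 6 matches in Agpat2, a pair of which share a base. The Fads2 match lies 99 to 94 bases before the start, among the bases nearer the start that were left out above. The E-box CACGTG and the sterol element TCACNCCAC were in 0 of 6, against 5.593% and 0.974% of all windows. These matches describe letters and not binding. The 6 windows differed in base composition: G and C made up 78.4% of the Agpat2 window, 73.2% of Fads1, 68.0% of Fads2 and 47.2% of Lpin1, with a median of 51.2% over all windows.

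Levels are given on a log2 scale obtained from the deposited log2 values, which run from 4.00 to 4.63, by raising 2 to each value and subtracting 16. That the result (0.047 to 8.82) is itself a log2 scale is inferred from the values and stated in no source. If it holds, a difference is close to a log2 ratio and understates the change of dim probes. Levels of different probes are not comparable. A gene is called changed at an adjusted p under 0.05 from limma, with Benjamini-Hochberg adjustment over the 15753 probes that passed a filter on low levels, and all 9 member probes passed it. In whole liver RNA, fewer cells of a type and less RNA per cell cannot be told apart.

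Some livers stood apart before any comparison. In C replicate 4 the 6 skeletal muscle markers summed to 28.0, against at most 2.80 in the 8 low protein livers, and its lung markers were likewise the highest. In C replicate 1 the fibroblast markers summed to 27.9 and the keratins to 10.2, against at most 15.2 and 0.84 in those 8. MLP-F replicate 2 correlated better with C replicate 2 (r = 0.993 over probes) than with any liver of its own group (at most 0.988). The labelled tissue was borne out by the hepatocyte list, whose 7 probes summed to 52.4 to 54.0 in C, 52.9 to 54.0 in MLP and 53.4 to 53.8 in MLP-F, with 0 called in any comparison. Of 7 adipocyte probes, which matter because fat cells also express many members, only Cidec was called (MLP vs C). All 8 probes of the adipocyte list, of which 7 passed the filter, summed to 15.4 to 16.7 in C, 16.1 to 17.7 in MLP and 15.3 to 17.3 in MLP-F. Adipoq (adiponectin) was at 0.17 to 0.49 in all livers and Lep (leptin) was below the filter. The highest probes of the list were Pck1 (group means 6.60 to 6.94) and Cfd (4.54 to 5.34), which weigh most in that sum. Probes that were not called went both ways. Cfd differed by 0.80 in MLP vs C, and Fabp4 by -0.36 there and by -0.45 in MLP vs MLP-F. Some probes of other lists were called: of 6 macrophage probes C1qc was higher in MLP by 0.51 against C and 0.75 against MLP-F, and C1qb by 0.60 against MLP-F. The rest of that list was not called. C1qa differed by 0.35 and 0.27, Cd163 by 0.009 and -0.030, and Adgre1 by 0.0003 and -0.031. Marco exceeded C by 0.71 in MLP and by 0.77 in MLP-F. The macrophage list summed to 12.3 to 13.3 in C, 13.0 to 15.7 in MLP and 12.5 to 14.2 in MLP-F. Of the erythroid list Alas2 was higher in MLP (0.34 against C, 0.33 against MLP-F) and Ahsp lower (-0.51 and -0.46), with sums of 18.9 to 19.7, 18.8 to 19.3 and 18.7 to 20.1. Fabp2, from the list of intestine and pancreas, was lower in MLP (-1.51 against C, -1.68 against MLP-F). Their part in the differences below was not tested.

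Between MLP and C, the MLP livers had more transcript of 3 assembly enzymes, Lpin1, Agpat2 and Dgat1, and less of the desaturase Fads1. This was 4 of the 9 members called (3 higher, 1 lower), while 4.35% of all probes were called in this comparison (2.27% higher, 2.08% lower). The members were chosen with earlier results of these data known, so shares set beside all probes are descriptions and not tests. The groups did not overlap for 5 members, against 12.2% of all probes. The median difference was 0.011 over the 9 members, which is the value of Acly, and 0.0037 over all probes. Between MLP and MLP-F, 5 of 9 were called (3 higher and 2 lower in MLP), with 6.58% of all probes called (3.53% higher, 3.05% lower), and 5 did not overlap, against 12% of probes. The medians were 0.033 over the members and -0.0012 over all probes. Between MLP-F and C, 0 of 9 were called by limma, and 0.482% of all probes were called. At an unadjusted p under 0.05 there were 5 of the 9 members, against 2353 of the 15753 probes. The groups of that comparison did not overlap for 1 member, against 6.27% of probes, and the medians were 0.10 and 0.0044. Any pair of these comparisons shares 4 livers, so they are not independent of each other.

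**Figure D1:**
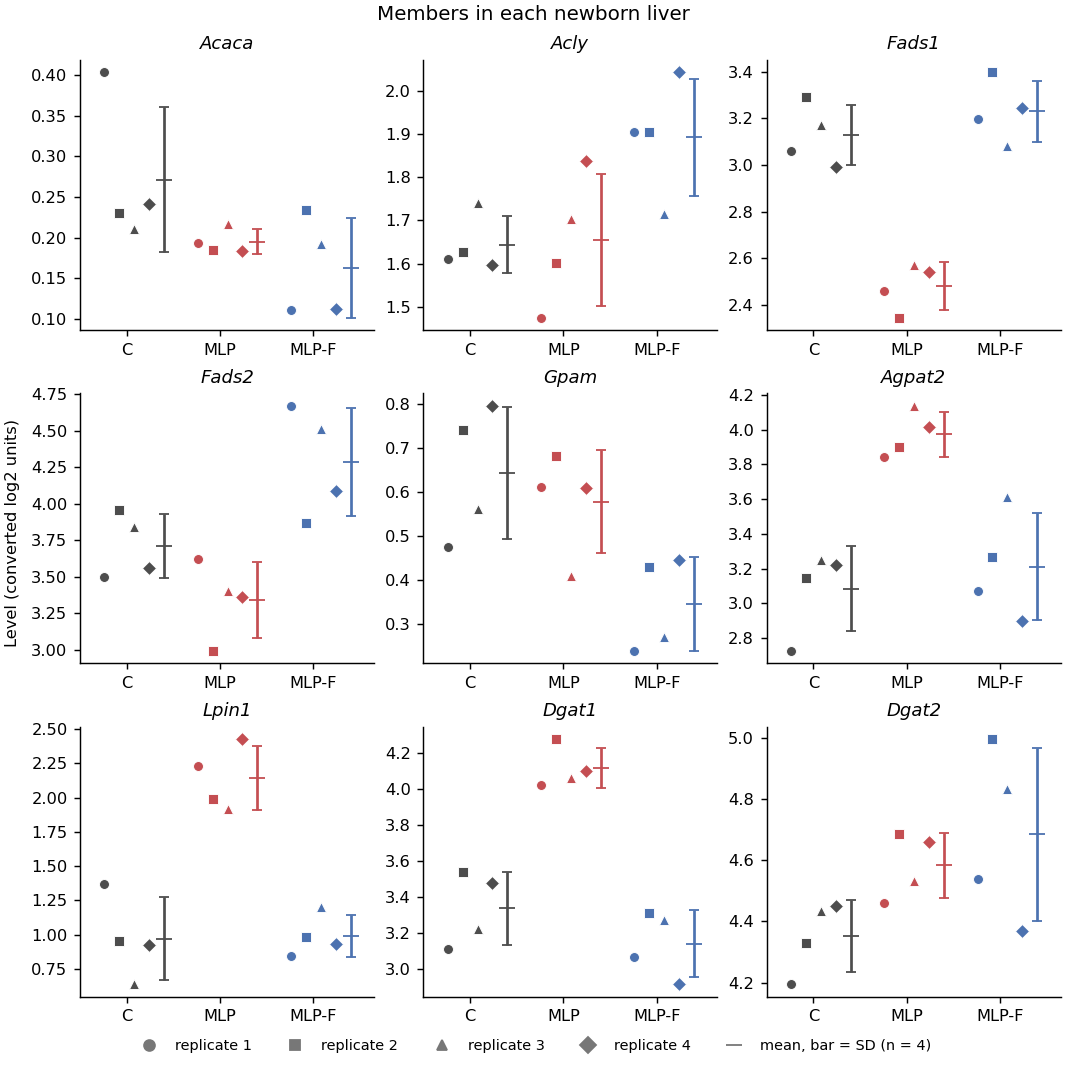
Levels (converted log2 units, a separate scale for each panel) of the 9 member probes in every liver, by maternal diet, with a marker for each replicate number and the group mean with its SD (n = 4) to the right of the points. The 4 MLP livers lie above all others for Agpat2, Lpin1 and Dgat1 and below all others for Fads1, while Gpam has its lowest mean in MLP-F.

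The first enzymes of the route gave no call. Acly, the ATP citrate lyase, measured 1.61, 1.63, 1.74 and 1.60 in C, 1.47, 1.60, 1.70 and 1.84 in MLP, and 1.91, 1.91, 1.71 and 2.04 in MLP-F. The MLP livers spread on both sides of C, and 3 of the 4 MLP-F livers lay above every C and MLP liver. The difference between MLP and C was 0.011 (95% interval -0.17 to 0.19, limma adjusted p = 0.971), and that between MLP-F and C was 0.25 (0.07 to 0.43, adjusted p = 0.187). Acaca, acetyl-CoA carboxylase, was dim: 0.40, 0.23, 0.21 and 0.24 in C, 0.19, 0.19, 0.22 and 0.18 in MLP, and 0.11, 0.23, 0.19 and 0.11 in MLP-F. A single C liver, replicate 1, held the highest value by far, and the groups otherwise overlapped. MLP differed from C by -0.077 (-0.18 to 0.03, adjusted p = 0.478) and MLP-F by -0.11 (-0.21 to -0.0037, adjusted p = 0.312). Without C replicate 1 these were -0.032 and -0.065 (adjusted p = 0.808 and 0.576).

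Fads1, the delta-5 desaturase, was lower in MLP than in both other groups. Its levels were 3.06, 3.29, 3.17 and 2.99 in C, 2.46, 2.34, 2.57 and 2.54 in MLP, and 3.20, 3.40, 3.08 and 3.24 in MLP-F. All 4 MLP livers lay below all 8 others, and C and MLP-F overlapped. MLP was lower than C by 0.65 (difference -0.65 ± 0.08 SE, limma adjusted p = 0.00274), about 1.57-fold on the inferred scale, and lower than MLP-F by a difference of -0.75 ± 0.08 (adjusted p = 0.000758). The difference of MLP-F from C was 0.10 (95% interval -0.08 to 0.28, adjusted p = 0.614).

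Fads2, the delta-6 desaturase, measured 3.50, 3.96, 3.84 and 3.56 in C, 3.62, 2.99, 3.40 and 3.37 in MLP, and 4.67, 3.87, 4.51 and 4.09 in MLP-F. MLP lay below MLP-F without overlap, while 3 MLP livers lay under every C liver and 3 MLP-F livers above. Against MLP-F the MLP level was lower, with a difference of -0.94 ± 0.19 SE (adjusted p = 0.0130), about 1.92-fold on the inferred scale. Neither step of that gap was called by itself: MLP differed from C by -0.37 (95% interval -0.77 to 0.04, adjusted p = 0.346) and MLP-F from C by 0.57 (0.16 to 0.98, adjusted p = 0.176). Without MLP-F replicate 2 the latter became 0.71 with an adjusted p of 0.0418.

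Lpin1, the phosphatidate phosphatase that in mouse liver also acts in the nucleus as a partner of transcription factors, had the largest difference of the members. It measured 1.37, 0.95, 0.64 and 0.92 in C, 2.23, 1.99, 1.92 and 2.43 in MLP, and 0.85, 0.98, 1.20 and 0.93 in MLP-F. Every MLP liver lay above every other liver, and the C and MLP-F livers were mixed. MLP exceeded C by 1.17 ± 0.15 SE (adjusted p = 0.00315), about 2.25-fold on the inferred scale, and exceeded MLP-F by 1.15 ± 0.15 (adjusted p = 0.00219). MLP-F and C differed by 0.020 (95% interval -0.31 to 0.35, adjusted p = 0.971).

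Dgat1, the acyltransferase of the final step that also handles fat taken up from outside the cell, measured 3.11, 3.54, 3.22 and 3.48 in C, 4.02, 4.28, 4.06 and 4.10 in MLP, and 3.07, 3.31, 3.27 and 2.92 in MLP-F. The MLP livers again lay above all others, with C and MLP-F overlapping. The rise was 0.78 ± 0.11 SE over C (adjusted p = 0.00509), about 1.72-fold on the inferred scale, and 0.98 ± 0.11 over MLP-F (adjusted p = 0.000915). MLP-F differed from C by -0.20 (95% interval -0.44 to 0.05, adjusted p = 0.458).

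Agpat2, which makes phosphatidic acid, measured 2.73, 3.14, 3.25 and 3.22 in C, 3.84, 3.90, 4.14 and 4.01 in MLP, and 3.07, 3.27, 3.61 and 2.90 in MLP-F. MLP stood above both other groups without overlap, with MLP-F replicate 3 the nearest to it. The difference was 0.89 ± 0.15 SE from C (adjusted p = 0.0106), about 1.85-fold on the inferred scale, and 0.76 ± 0.15 from MLP-F (adjusted p = 0.0143). MLP-F differed from C by 0.13 (95% interval -0.21 to 0.46, adjusted p = 0.756). Without C replicates 1 and 4 the difference of MLP from C was 0.78 and no longer passed (adjusted p = 0.0623).

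The other enzymes of assembly were not called. Gpam, the mitochondrial glycerol-3-phosphate acyltransferase at the head of the route, measured 0.48, 0.74, 0.56 and 0.80 in C, 0.61, 0.68, 0.41 and 0.61 in MLP, and 0.24, 0.43, 0.27 and 0.45 in MLP-F. MLP lay within the range of C apart from replicate 3, and the MLP-F livers all lay below the C livers. The difference of MLP-F from C was -0.30 (95% interval -0.48 to -0.11, adjusted p = 0.127) and that of MLP from C was -0.07 (-0.25 to 0.12, adjusted p = 0.783). Dgat2, the acyltransferase linked to newly made fatty acids, measured 4.19, 4.33, 4.44 and 4.45 in C, 4.46, 4.68, 4.53 and 4.66 in MLP, and 4.54, 5.0, 4.83 and 4.37 in MLP-F. The C livers lay below all MLP livers by a narrow margin, and MLP-F had the widest spread and overlapped both other groups. MLP exceeded C by 0.23 (-0.04 to 0.50, adjusted p = 0.373) and MLP-F by 0.33 (0.07 to 0.60, adjusted p = 0.216), so its intervals leave room for a rise of about that size.

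**Figure D2:**
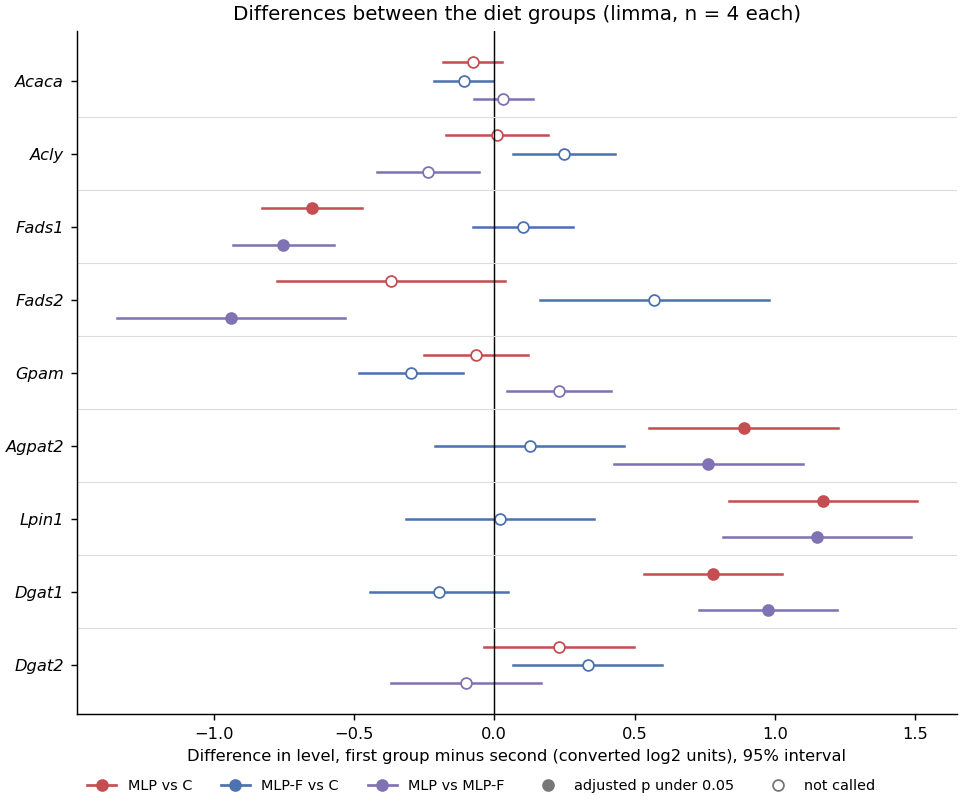
Differences in level between the diet groups (converted log2 units, first group minus second) with 95% intervals from limma, for the 9 member probes in the 3 comparisons; filled points have an adjusted p under 0.05. Filled points occur for Fads1, Fads2, Agpat2, Lpin1 and Dgat1, and none of the MLP-F vs C points is filled.

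The order of group levels therefore differed between the members. For Fads1, Lpin1, Dgat1 and Agpat2 the MLP group was separated from C and MLP-F, whose means (3.13 and 3.23 for Fads1, 0.97 and 0.99 for Lpin1, 3.34 and 3.14 for Dgat1, 3.09 and 3.21 for Agpat2) were not separated by the test, with C and MLP-F values that overlapped. For Fads2 the order was MLP (3.35), C (3.71) and MLP-F (4.28), and only the outer groups differed by the test. For Acaca, Acly, Gpam and Dgat2 no neighbours in the order were separated by a call.

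Leaving out each of the 12 livers in turn gave 4 called members in MLP vs C each time and 5 in MLP vs MLP-F each time. Across these fits the Lpin1 difference between MLP and C ran from 1.06 to 1.30, that of Dgat1 from 0.70 to 0.85, that of Agpat2 from 0.77 to 0.94 and that of Fads1 from -0.69 to -0.60. Without both C livers that carried other tissues' markers, Lpin1 differed by 1.35, Dgat1 by 0.74 and Fads1 by -0.75, and 3 members were called. Without MLP-F replicate 2, 5 members were called between MLP and MLP-F.

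**Figure D3:**
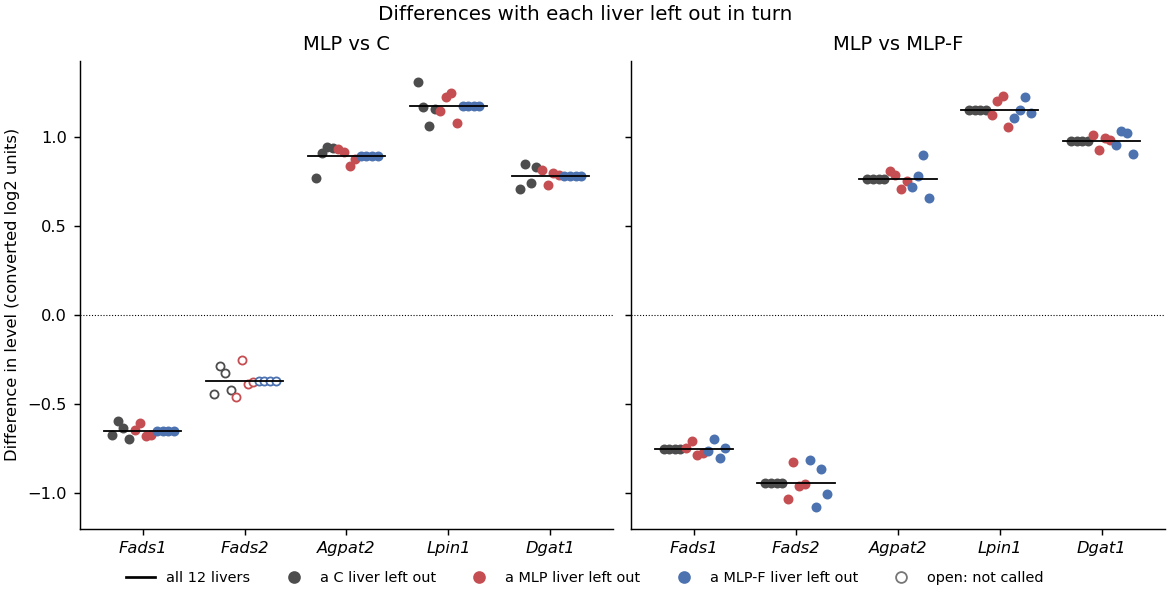
Differences in level (converted log2 units) of the 5 called members in the comparisons of MLP with C and with MLP-F; each point is a fit without 1 liver, coloured by the group of the liver left out, and the black line is the fit with all 12. All points are filled (adjusted p under 0.05) except those of Fads2 in MLP vs C, and Lpin1 against C ranges from 1.06 to 1.30.

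Other genes of fat synthesis and storage were taken from 5 lists. These too were chosen with earlier results of these data known, so a list's share of calls is a description and not a test. Of 87 such genes, 69 had a probe and 63 of their 70 probes passed the filter. Between MLP and C, 6 of the 63 were called (9.52%, 4 higher and 2 lower, with 4.35% of all probes called), and between MLP and MLP-F 5 (7.94%, 3 higher and 2 lower), close to the 6.58% of all probes. Between MLP-F and C the count was 0 by limma, with 12 at an unadjusted p under 0.05 (2353 of the 15753 probes were). The list of droplet, lipolysis and secretion genes held 5 of the 6 calls in MLP vs C (5 of 14 probes, 35.7%, against 4.35% of all probes), of which Cidec and Pnpla2 were lost when single livers were left out, and its median difference was 0.09, against 0.0037 over all probes. In MLP vs MLP-F 2 of its 14 probes were called (14.3%, against 6.58% of all probes), Plin5 and Abhd5.

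Fitm2, which helps droplets form at the endoplasmic reticulum, measured 2.74, 3.07, 2.63 and 2.70 in C, 3.64, 3.65, 3.80 and 3.45 in MLP, and 3.27, 3.18, 3.43 and 3.15 in MLP-F. The MLP livers were the highest, C the lowest, and MLP-F lay between without overlap with either. Its rise in MLP over C was 0.85 ± 0.10 SE (adjusted p = 0.00274), while the differences of MLP from MLP-F (0.38, adjusted p = 0.0572) and of MLP-F from C (0.47, adjusted p = 0.0792) were not called. Plin5, a droplet coat protein of tissues that oxidise fat, measured 0.54, 0.57, 0.18 and 0.62 in C, 1.46, 1.61, 1.48 and 1.05 in MLP, and 0.11, 0.63, 0.41 and 0.39 in MLP-F. All MLP livers lay above all others, with a rise of 0.92 ± 0.14 over C (adjusted p = 0.00670) and of 1.01 ± 0.14 over MLP-F (adjusted p = 0.00261).

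Cidec, which fuses droplets, and Pnpla2, the main triglyceride lipase, were also higher in MLP than in C, by 0.91 (adjusted p = 0.0306) and 0.72 (adjusted p = 0.0335). Both were named after their values were seen, and each lost its call when single livers were left out (adjusted p up to 0.0931 for Cidec and 0.0993 for Pnpla2, both without MLP replicate 2). The Cidec levels were 1.35 to 1.60 in C, 2.17 to 2.72 in MLP and 1.26 to 2.35 in MLP-F, the last of which overlapped both other groups. Abhd5, the coactivator of that lipase, went the other way: 0.67 to 0.90 in C, 0.43 to 0.52 in MLP and 0.64 to 0.84 in MLP-F. MLP lay below both groups without overlap, by a difference of -0.31 ± 0.06 SE from C (adjusted p = 0.0122) and -0.23 ± 0.06 from MLP-F (adjusted p = 0.0374). The latter call was lost without any 1 of the MLP or MLP-F livers (adjusted p 0.0527 to 0.101), and the former without C replicates 1 and 4 (0.0941). Mttp, which loads triglyceride onto apolipoprotein B, was not called, and its value closest to a call was -0.57 in MLP-F vs C (adjusted p = 0.0628).

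**Figure D4:**
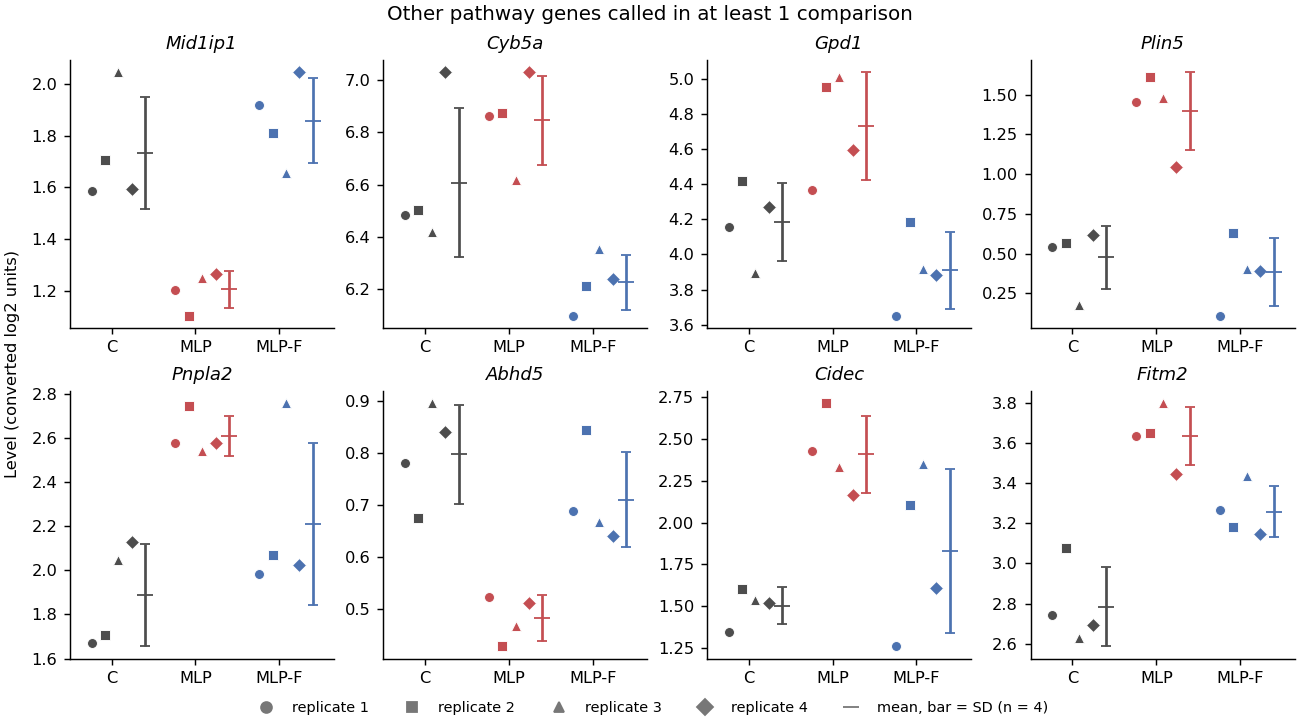
Levels (converted log2 units, a separate scale for each panel) of the 8 other pathway genes called in at least 1 comparison, in every liver by maternal diet, with group means and SD (n = 4). Plin5, Fitm2, Gpd1, Cidec, Pnpla2 and Cyb5a have their highest mean in MLP and Mid1ip1 and Abhd5 their lowest, and MLP-F replicate 3 stands alone above its group for Pnpla2.

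Of the 6 supply and synthesis probes that passed, 1 was called in MLP vs C and in MLP vs MLP-F (16.7% each, against 4.35% and 6.58% of all probes). Mid1ip1, a protein that promotes polymerisation of acetyl-CoA carboxylase, measured 1.59, 1.70, 2.05 and 1.59 in C, 1.20, 1.10, 1.25 and 1.26 in MLP, and 1.92, 1.81, 1.66 and 2.05 in MLP-F. The MLP livers lay below all others, by a difference of -0.53 ± 0.11 SE from C (adjusted p = 0.0195) and -0.65 ± 0.11 from MLP-F (adjusted p = 0.00575). The call against C was lost without MLP replicate 2 (adjusted p = 0.0614). Of the 9 elongation and desaturation probes, 0 were called in MLP vs C by limma, against 4.35% of all probes. At an unadjusted p under 0.05 there was 1, against 2731 of the 15753 probes. In MLP vs MLP-F 1 was called (11.1%, against 6.58% of all probes). This was Cyb5a, the cytochrome b5 that passes electrons to desaturases, higher in MLP than in MLP-F by 0.62 (adjusted p = 0.0165). That call was lost without MLP replicate 4 (adjusted p = 0.0503) or MLP-F replicate 1 (0.0517), and C replicate 4, at 7.03, stood above the other C livers. From C, Cyb5a differed by 0.24 in MLP (adjusted p = 0.391) and by -0.38 in MLP-F (adjusted p = 0.191). Neither was called, and MLP-F lay below C without overlap. Scd, the delta-9 desaturase that makes oleic acid, had the widest differences of that list in both comparisons of MLP and no call: 0.61 for MLP vs C (95% interval -0.01 to 1.24, adjusted p = 0.301) and 1.00 for MLP vs MLP-F (0.37 to 1.63, adjusted p = 0.0632). Between MLP-F and C 0 of the 9 were called by limma and 4 had p under 0.05 before adjustment, against 2353 of the 15753 probes. The median difference was -0.36 over the list and 0.0044 over all probes. The widest difference there was that of Tecr, the reductase of the last elongation step, at -0.78 (-1.31 to -0.26, adjusted p = 0.155).

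Of the 16 other probes of glycerolipid assembly, 0 were called in MLP vs C by limma. At an unadjusted p under 0.05 there were 6, against 2731 of the 15753 probes. In MLP vs MLP-F 1 was called (6.25%, close to the 6.58% of all probes). This was Gpd1, which makes the glycerol-3-phosphate backbone, at 3.90 to 4.42 in C, 4.37 to 5.01 in MLP and 3.65 to 4.18 in MLP-F. MLP exceeded MLP-F without overlap by 0.82 ± 0.16 SE (adjusted p = 0.0130) and its excess over C, 0.55, was not called (adjusted p = 0.0869). Gpat4, the microsomal counterpart of Gpam, differed by 0.20 from C (adjusted p = 0.208) and by 0.27 from MLP-F (adjusted p = 0.0729). Acsl1, which activates fatty acids, differed by 0.42 (adjusted p = 0.167) and 0.53 (adjusted p = 0.0629). Acsl3, another acyl-CoA synthetase, came closest to a call in MLP-F vs C, at -0.43 (adjusted p = 0.113).

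The 18 regulator probes had 0 calls in each comparison by limma. Before adjustment, 3 had p under 0.05 in MLP vs C, 3 in MLP-F vs C and 5 in MLP vs MLP-F. Of all 15753 probes, 2731, 2353 and 3068 did. Srebf1, the sterol element binding factor that drives lipogenic genes, was looked up for its role after the values were seen, and measured 2.67, 2.61, 2.73 and 2.31 in C, 2.50, 2.01, 1.82 and 2.35 in MLP, and 3.15, 2.72, 2.46 and 1.72 in MLP-F. The MLP livers overlapped C, and MLP-F spanned the range of both. MLP differed from C by -0.41 with a wide interval (-0.97 to 0.16, adjusted p = 0.481). Usf1, a factor that binds E-boxes, differed by -0.24 from C (adjusted p = 0.172) and -0.28 from MLP-F (adjusted p = 0.0877). In MLP-F vs C, its relative Usf2 differed by -0.28 (adjusted p = 0.142) and Nr1d1, a clock repressor, by -0.38 (adjusted p = 0.159).

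The genes most alike in pattern to the 3 members with the smallest p over all groups are given as a description, over the 12 livers and 10551 named probes of other genes. For Lpin1 they were Per1 (r = 0.948), a clock gene, Chkb (0.937), a choline kinase, and Gadd45b (0.931), a stress-induced gene. For Dgat1 they were Fcgrt (0.969), the neonatal Fc receptor, Decr2 (0.960), a peroxisomal enzyme of fatty acid oxidation, and Abcc8 (0.958). For Fads1 they were Slc39a8 (0.950), a metal ion transporter, Lrrc42 (0.949) and Lgals2 (0.947), a galectin. In each case the 12 points share the split between MLP and the other 8 livers.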

How the data were processed

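The authors processed raw RatRef-12 data with the beadarray and limma packages and quantile normalization, per the study's methods, and deposited log2 values of 22505 probes. The study links a Bioconductor release and mentions removal of low quality probes; the rule for that filter, any background correction and the packages' own versions are not given in the sources used here. A deposited table without normalization has 12 columns that no label matches, and it was not used. Values were brought to the scale used above by exponentiation to base 2 and subtraction of 16. Probes were named by the platform annotation (13778 probes with 1 symbol, 0 with several, 8727 with none), updated through Entrez identifiers with RefSeq GRCr8.

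A filter on the mean over the 12 livers (30th percentile, 0.158) left 15753 probes. A single fit in limma 3.58.1 (R 4.3.3; lmFit, contrasts.fit, eBayes; 9 residual and 2.26 prior degrees of freedom) gave 3 two-sided contrasts, with Benjamini-Hochberg adjustment over kept probes. Intervals are 95% intervals from the moderated standard error. The code was tested on simulated data. Arrays give no read depth, and 4 livers per group limit the precision.

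The members and lists were chosen with earlier results of these data known. All members are named, and of each pathway list up to 4 probes with the smallest p, apart from those said to be named later. Alternatives changed the filter, scale, normalization, samples in the fit, sample weights, variance prior, replicate block and livers.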

Additional observations from a re-analysis of the deposited data

Results flagged for a closer look

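Within-group values of the 9 members and the 8 other pathway genes called in at least 1 comparison were checked for a liver far from the other 3 of its group. Of 51 groups 3 held such a liver, and chance flags about 1 in 20 groups. Acaca measured 0.40 in C replicate 1 against 0.21 to 0.24 in the other C livers. Cyb5a measured 7.03 in C replicate 4 against 6.42 to 6.50. Pnpla2 measured 2.76 in MLP-F replicate 3 against 1.98 to 2.07. The first and second of these livers are those that carried markers of other tissues.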

How the results depend on the processing

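Fads1, Lpin1 and Dgat1 were called under all 22 alternatives in MLP vs C and in MLP vs MLP-F, as were Agpat2 and Fads2 in MLP vs MLP-F. Agpat2 in MLP vs C was called under 20 of 22, and not when C replicates 1 and 4 were left out, alone or with MLP-F replicate 2, a combination chosen after seeing the data (adjusted p up to 0.0626). Single livers left out gave 4 to 4 called members in MLP vs C, 0 to 1 in MLP-F vs C (Fads2, without MLP-F replicate 2) and 5 to 5 in MLP vs MLP-F, and the other settings gave 3 to 4, 0 to 0 and 5 to 6. The other pathway probes called numbered 3 to 6, 0 to 5 and 3 to 9 with single livers left out, and 3 to 7, 0 to 2 and 4 to 10 under the other settings. Over all probes the counts ran from 335 to 814, from 1 (without MLP-F replicate 3) to 940 (without MLP-F replicate 2) and from 619 to 1355 with single livers left out, and from 211 to 929, 6 to 227 and 793 to 1457 otherwise, against 685, 76 and 1037 as fitted to all livers. The causes were not tested. With the replicate block 4, 0 and 6 members were called, the sixth being Gpam in MLP vs MLP-F (0.23, adjusted p = 0.0495), and 562, 29 and 912 probes; Mid1ip1 in MLP vs C (adjusted p = 0.0522) and Abhd5 in MLP vs MLP-F (0.0937) lost their calls. The labels do not say whether the numbers pair livers, and the values cannot settle it, since they were set against no reference. Residual correlations of same-numbered livers ran from -0.22 to 0.14, 1 of 12 pairs was over 0.1, and 5 of 12 livers correlated best with their own number. The 50th percentile filter removed Acaca. The planned swap to other probes of a gene was not run, since each member has 1. No called difference reversed. Dim probes, Acaca most of all, limit what a missed call says.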
